A study of Mus musculus with 12 samples.

Results

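The genes described here are those that the mouse mitochondrial genome itself encodes. They were taken as every row of the deposited count table whose chromosome was MT, which gave 37 of 54532 annotated genes. By the deposited biotype, 13 were protein-coding, 2 were ribosomal RNA (rRNA) genes and 22 were transfer RNA (tRNA) genes. The annotation placed 28 of them on the plus strand and 9 on the minus strand, and the minus-strand genes were mt-Nd6 and 8 tRNA genes.

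Counts came from 12 bulk RNA-seq libraries of mouse fetal ovary at E15.5 (days after mating), with 3 replicates in each of 4 groups. All embryos were of the strain Tg(Pou5f1-EGFP)2Mnn, in which OCT4-GFP marks germ cells, and the ovaries were sorted into OCT4-GFP positive germ cells and OCT4-GFP negative somatic cells. Their mothers had been injected intraperitoneally once a day from E12.5 to E15.5, either with dexamethasone (dex, a synthetic glucocorticoid receptor agonist) at 10 μg per gram of body weight or with saline. Each replicate pooled ovaries of more than 1 litter, so single animals were not measured, and the somatic fraction held every GFP-negative cell type of the ovary. The comparisons asked how these genes responded to dex in each cell fraction, whether the responses differed, and how germ and somatic cells differed under each treatment.

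Mitochondrial DNA is a small circle transcribed from both strands into long precursors. The tRNAs that lie between the other genes are cut out, and this releases the mRNAs and rRNAs. The mRNAs encode core subunits of respiratory complexes I, III and IV and of the ATP synthase, and the rRNAs and tRNAs serve the ribosome inside the organelle. Nearly all mitochondrial mRNAs carry a short poly(A) tail, the rRNAs carry very short A tails, tRNAs carry none, and the light-strand mRNA mt-Nd6 is known to lack a long one. These libraries were made from RNA bound to poly-dT beads, so the levels of mRNA, rRNA and tRNA genes depend on tails as well as on abundance, and the classes were not compared as amounts of RNA. In bulk samples, fewer cells of a type and less RNA per cell cannot be told apart.

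Library totals ran from 14658503 to 18245507 counts. The sort was visible in Pou5f1, the gene behind the GFP reporter, at 14.2 to 25.8 CPM (a gene's share of a library's counts, scaled by TMM factors) in the 6 germ cell libraries and at most 0.121 in the somatic ones. Col1a1, a collagen gene of mesenchyme, was at 27.2 to 57.7 CPM in germ cells and 6148 to 8031 in somatic cells. Zbtb16, a glucocorticoid target, stood at 0.559 ± 0.331 CPM after saline and 70.1 ± 13.6 after dex in somatic cells (SD, n = 3; edgeR adjusted p = 4.33e-09). The germ cell levels were 0.450 ± 0.253 and 3.57 ± 1.41 CPM (edgeR adjusted p = 0.0249). Red blood cell markers summed to 3329 to 16535 CPM in the somatic libraries and to 10.1 to 48.9 CPM in the germ cell libraries.

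Part of the mitochondrial genome has a near-identical copy on nuclear chromosome 1, which bears on how several of these genes could be counted. Transcripts of GENCODE M21 (GRCm38, the assembly of mm10) were aligned to each other. At an identity of at least 99% over at least 200 bases, 7 annotated nuclear genes matched mitochondrial bases 6390 to 11042. They lie at chr1:24611535-24616188 on the minus strand. Over 4140 aligned bases of these gene pairs there were 2 mismatches. The segment spans 4653 mitochondrial bases and 4654 nuclear bases, and its bases outside these pairs were not compared. Some genes outside the segment had less similar nuclear matches, such as mt-Nd2 (Gm13339, 96.7% over 510 bases) and mt-Nd5 (Gm4076, 95.2% over 954 bases). The stretches that hold both mismatches are shown because, within the aligned bases, a read could tell the copies apart there. The first is in mt-Co1, which encodes the catalytic subunit of cytochrome c oxidase (chrM:6390-6449, plus strand, and chr1:24616129-24616188, minus strand), and the second is at the start of mt-Nd3, a complex I subunit (chrM:9459-9518, plus strand, and chr1:24613060-24613119, minus strand). The differing base is in capitals and positions are counted from 1 at the first base of the mitochondrial gene, which gives A1066T in mt-Co1 and T3C in mt-Nd3.
mt-Co1: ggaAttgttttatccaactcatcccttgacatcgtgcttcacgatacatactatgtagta
Gm29216: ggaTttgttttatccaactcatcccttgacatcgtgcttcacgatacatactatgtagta
mt-Nd3: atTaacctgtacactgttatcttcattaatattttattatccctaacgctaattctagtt
Gm28438: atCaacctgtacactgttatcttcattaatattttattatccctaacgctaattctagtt

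mt-Co2, the second subunit of cytochrome c oxidase, had an identical copy in Gm28661 and a diverged one on chromosome 2, Gm13341, at 95.9% identity over 684 bases. Their first 90 bases show the contrast between a copy that a read cannot tell apart and one that it often can (chrM:7013-7102, plus strand; chr1:24615476-24615565 and chr2:22587873-22587962, minus strand). Capitals mark the 2 positions at which the chromosome 2 copy differs.
mt-Co2: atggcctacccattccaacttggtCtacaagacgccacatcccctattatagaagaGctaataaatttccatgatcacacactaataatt
Gm28661: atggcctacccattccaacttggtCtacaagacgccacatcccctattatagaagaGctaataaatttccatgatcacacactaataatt
Gm13341: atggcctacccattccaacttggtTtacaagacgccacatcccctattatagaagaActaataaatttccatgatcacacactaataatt

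Genes were placed by position between the outermost aligned bases. By this rule the copied segment held 11 mitochondrial genes whole, 6 mRNA genes (mt-Co2, mt-Atp8, mt-Atp6, mt-Co3, mt-Nd3 and mt-Nd4l) and 5 tRNA genes. It held 31.3% of mt-Co1 and 63.6% of mt-Nd4, and 24 genes lay outside it. For mt-Atp8 only 43 of 204 bases were aligned to an annotated nuclear gene. For the 5 tRNA genes none were, so a copy of these genes was inferred from position only. Neighbouring genes also share bases with each other. The overlap of mt-Atp8 with mt-Atp6, both subunits of the ATP synthase, is 43 bases (chrM:7927-7969). That of mt-Nd4l with mt-Nd4, both of complex I, is 7 bases (chrM:10167-10173). They are shown with flanking bases on each side (chrM:7907-7989 and chrM:10147-10193, plus strand). The overlap is in capitals because a read from its bases belongs to both genes.
mt-Atp8/mt-Atp6: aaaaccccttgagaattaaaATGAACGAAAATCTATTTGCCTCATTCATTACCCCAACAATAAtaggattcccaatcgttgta
mt-Nd4l/mt-Nd4: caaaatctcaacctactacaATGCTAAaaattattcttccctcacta

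Per length, the mRNA genes fell into 2 ranges that followed the copied segment. The deposited FPKM values, averaged over the 12 libraries, ran from 555 to 1789 for the 5 mRNA genes outside it and from 1.53 to 30.8 for the 6 inside it. No single FPKM value of the inside genes exceeded 102, and none of the outside genes was below 189. mt-Co1 and mt-Nd4, which lie partly inside, averaged 3587 and 691. How reads that align equally well to both copies were counted is not given in the sources used here. The levels of the 6 inside genes are therefore uncertain, and so in part are those of mt-Co1 and mt-Nd4. The part of the copy in these values was not tested.

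Among the mRNA genes outside or partly inside the segment, mt-Co1 had the highest FPKM in every group, at 3130 ± 290 in germ cells after saline and 4368 ± 544 in somatic cells after saline (SD, n = 3). mt-Cytb, the complex III subunit cytochrome b, followed at 1404 ± 92.4 in germ cells, where mt-Nd1 of complex I was next at 1030 ± 100.1. In somatic cells after saline mt-Nd1 stood at 2865 ± 495 and mt-Cytb at 2517 ± 438, and within each of these 3 libraries mt-Nd1 was the higher (3134 against 2822, 3168 against 2714 and 2294 against 2014). mt-Nd5 and mt-Nd6 were the lowest of the 7 in germ cells, at 293 ± 34.3 and 258 ± 37.8 after saline, with mt-Nd5 the higher in each library (277 against 228, 332 against 300.4 and 269 against 247). The order of these genes was not tested.

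The nuclear copies had counts of the same size as the mitochondrial genes inside the segment. mt-Co2 had 162 to 260 counts per germ cell library and 289 to 1229 per somatic library, and Gm28661 had 197 to 349 and 330 to 1271. For each 100 counts of Gm28661 there were 72.3 to 96.7 of mt-Co2 across the 12 libraries. mt-Atp6 ran at 61.7 to 95.8 per 100 of Gm10925, and mt-Co3, the third cytochrome c oxidase subunit, at 62.7 to 91.4 per 100 of Gm28437. mt-Nd3 was at 2.72 to 15.6 per 100 of Gm28438, so most counts of that near-identical pair stood on the nuclear gene. mt-Co1, which is mostly outside the segment, had over 15475 counts for each 100 of Gm29216.

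**Figure D1:**
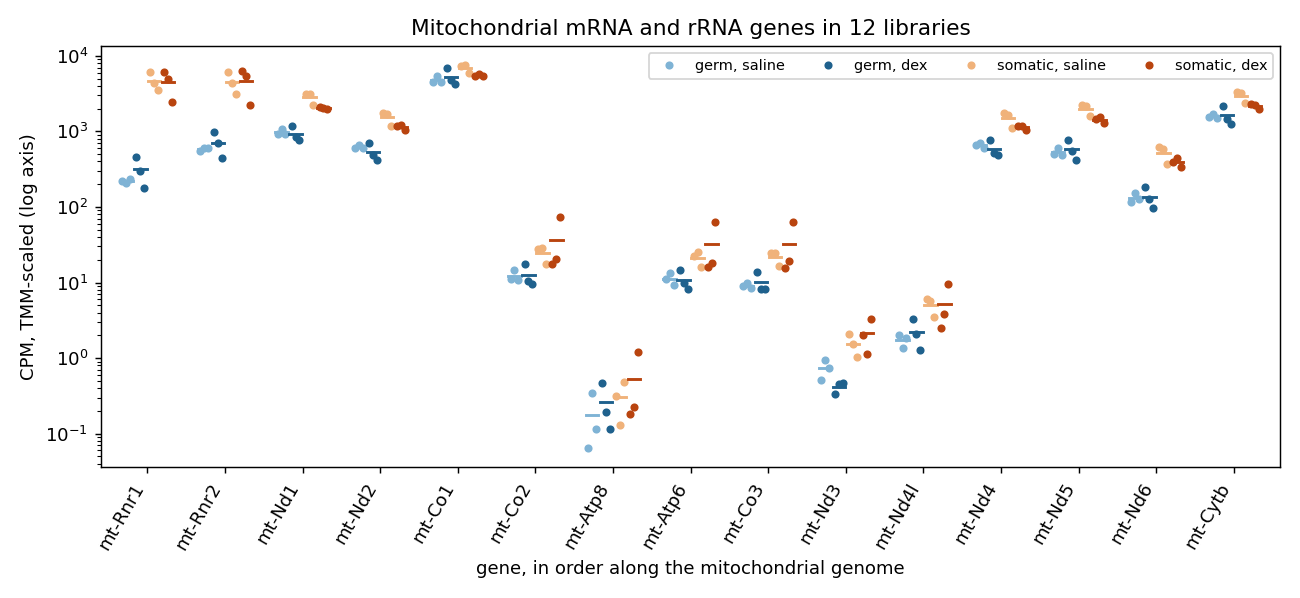
CPM on a log axis for the 13 mRNA and 2 rRNA genes in gene order, with 1 point per library and a bar at each group mean (n = 3). The 6 genes from mt-Co2 to mt-Nd4l sit far below the others, and the third somatic dex library is the highest point in each of these 6.

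1 library stood apart in the segment. The third somatic dex library had 73.1 CPM of mt-Co2, against 17.5 and 20.7 in the other somatic dex libraries and 27.5, 28.4 and 17.8 in somatic cells after saline. Relative to the mean of the other somatic dex libraries it was 3.83 times higher for mt-Co2, 3.71 for mt-Atp6, 3.58 for mt-Co3, 2.97 for mt-Nd4l and 2.13 for mt-Nd3. The nuclear copies were higher there too, 3.28 times for Gm28661, 3.05 for Gm10925, 3.23 for Gm28437 and 2.57 for Gm10222, while Gm28438 was at 1.39. Of the 12284 genes averaging 5 CPM or more, 1.45% were at least 2 times higher in that library. mt-Nd3 and mt-Nd4l averaged less than 5 CPM, so this share is not a background for them. The same library was lower in the rRNAs, at 0.441 of the others' mean for mt-Rnr1 and 0.385 for mt-Rnr2, while the 7 abundant mRNA genes were at 0.818 to 0.963. It also had the lowest sum of red blood cell markers among the somatic libraries, 3329 CPM, and the part of this in the values was not tested.

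**Figure D2:**
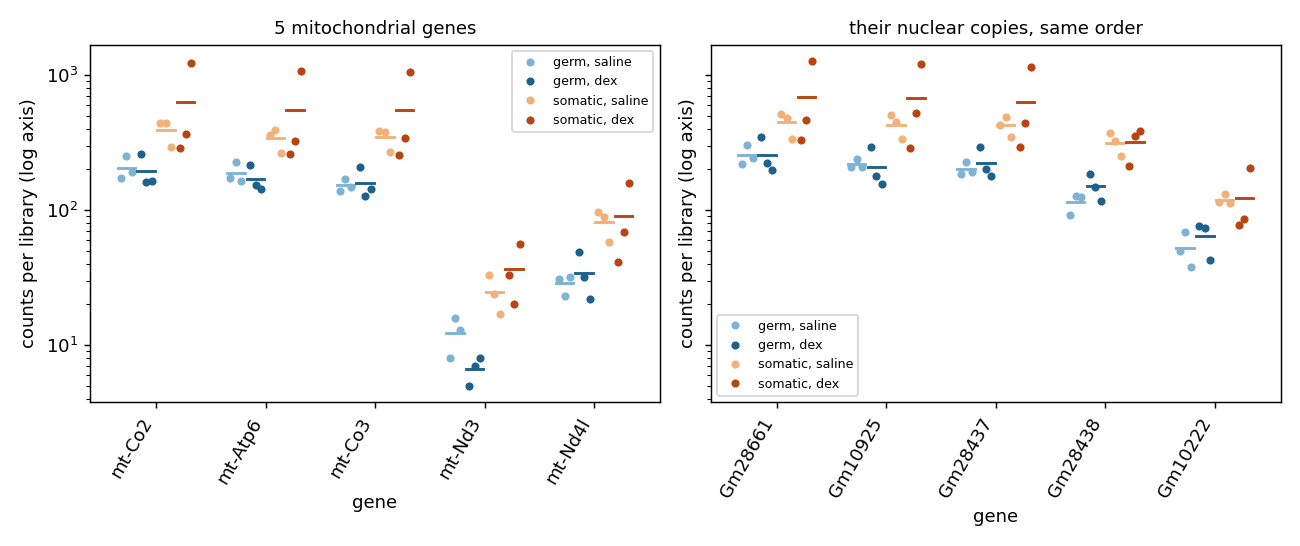
Counts per library on a log axis for 5 mitochondrial genes inside the copied segment (left) and their nuclear copies in the same order (right), coloured by group, with a bar at each mean. The third somatic dex library is highest in each panel for each of the 5 pairs, by a small margin for Gm28438 (383 against 370 in the next). In CPM, Gm28438 in that library was 0.978 of the highest other library.

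The tRNA genes were close to absent from these libraries. 5 of the 22 had no count in any library, which allows up to 3 counts per library, and 4 of those 5 (mt-Ts1, mt-Td, mt-Tk and mt-Tg) lay inside the copied segment, the other being mt-Tf. In all, 10 of the 22 had fewer than 10 counts in every library. The lowest mRNA gene, mt-Atp8, had 1 to 20. mt-Tp, the proline tRNA, was the most abundant at 238 to 343 counts. Together the tRNA genes took 0.00258% to 0.00529% of counts.

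Germ cells had lower levels of mitochondrial mRNA and rRNA than somatic cells after saline. The 13 mRNA genes took 0.882%, 1.04% and 0.874% of all counts in the germ cell libraries and 2.01%, 2.06% and 1.504% in the somatic ones. The 2 rRNA genes took 0.0764%, 0.0809% and 0.0829% in germ cells and 1.204%, 0.892% and 0.671% in somatic cells. Neither share overlapped between the fractions. These sums were not tested.

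**Figure D3:**
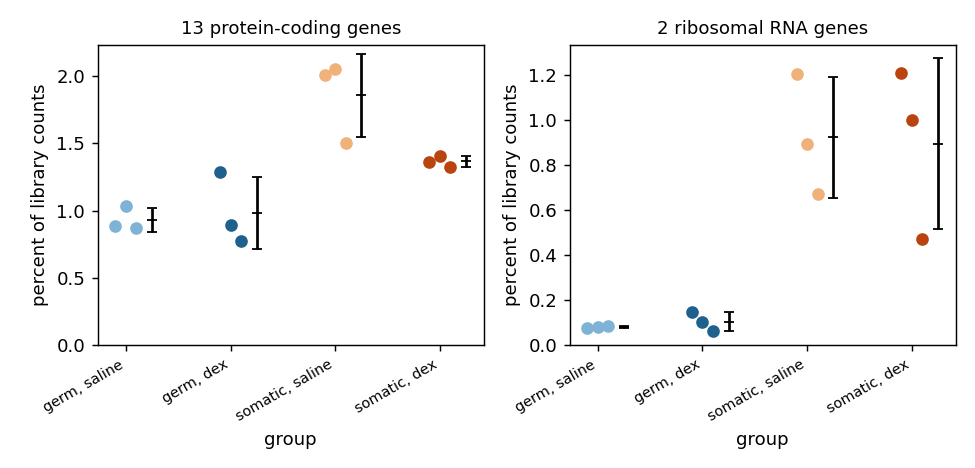
Percent of library counts taken by the 13 mRNA genes (left) and the 2 rRNA genes (right), 1 point per library, with the group mean and SD beside the points (n = 3). Germ cells lie below somatic cells in both panels, although for mRNA the highest germ cell dex library (1.29%) comes close to the lowest somatic dex library (1.32%).

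Gene by gene, 23 of the 37 passed the filter on low counts in that comparison, and edgeR called 19 of them, 16 lower and 3 higher in germ cells. Across all 17941 genes tested, 42.9% were called lower and 43.1% higher (86.1% in either direction), so a call by itself is common between these fractions. All 12 mRNA genes tested and both rRNA genes were lower in germ cells, and mt-Atp8 had too few counts to be tested. The call of mt-Nd3, at -1.06 ± 0.42, held in 7 of 13 alternatives and was lost with DESeq2 and without germ cell replicate 1 or 3 or somatic replicate 1 or 2. The median log2 difference of the 23 genes was -0.996 beside 0.00470 over all genes.

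The rRNAs differed most. mt-Rnr1, the small-subunit 12S rRNA (chrM:70-1024), was at 224, 205 and 233 CPM in germ cells and 6025, 4371 and 3482 in somatic cells after saline. Its log2 difference, germ minus somatic, was -4.38 ± 0.16 (SE), with an adjusted p of 2.15e-12 by edgeR. mt-Rnr2, the large-subunit 16S rRNA, was at 547, 601 and 601 CPM against 6092, 4345 and 3165, a log2 difference of -2.95 ± 0.17 (adjusted p = 4.26e-10 by edgeR). The groups did not overlap for either gene.

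The rRNAs also differed in proportion to each other and to the mRNAs. For each 100 counts of mt-Rnr2 there were 34.1 to 47.1 of mt-Rnr1 in the 6 germ cell libraries and 91.4 to 110.0 in the 6 somatic libraries. Per 100 mRNA counts there were 7.81 to 11.5 rRNA counts in germ cells and 35.6 to 88.5 in somatic cells. Neither ratio overlapped between the fractions, and neither was tested.

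Among the mRNAs the difference was graded. mt-Co1 differed least, at 4504, 5333 and 4528 CPM in germ cells and 7371, 7542 and 5954 in somatic cells, a log2 difference of -0.53 ± 0.10 (adjusted p = 0.000141 by edgeR). mt-Cytb followed at -0.89 ± 0.11. The complex I genes were further down, with mt-Nd4 at -1.19 ± 0.13, mt-Nd2 at -1.31 ± 0.12 and mt-Nd1 at -1.52 ± 0.12. mt-Nd5 was at 501, 603 and 482 CPM in germ cells and 2232, 2169 and 1583 in somatic cells, a log2 difference of -1.91 ± 0.12. mt-Nd6, the complex I gene on the other strand, was at -1.96 ± 0.16. mt-Nd5 and mt-Nd6 overlap by 14 bases on opposite strands, and whether counting used strand is not given in the sources used here, so antisense reads in them cannot be told apart from their own.

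The same grading appears in the make-up of the mRNA counts. mt-Co1 took 51.3% ± 0.544 of the mRNA counts in germ cells after saline and 38.0% ± 1.81 in somatic cells (SD, n = 3). mt-Nd5 took 5.65% ± 0.189 in germ cells and 10.8% ± 0.203 in somatic cells, and mt-Nd1 10.4% ± 0.166 and 15.3% ± 0.225. mt-Cytb had nearly the same share in both, 17.1% ± 0.425 and 16.1% ± 0.265. These are shares of the deposited counts and may not be the make-up of the mRNA. The genes inside the copied segment, whose levels are uncertain, added little to the total (mt-Co2 0.130% in germ cells after saline). mt-Co1 and mt-Nd4 lie partly in that segment.

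The 5 tested mRNA genes inside the copied segment were lower in germ cells by log2 differences of -0.91 (mt-Atp6) to -1.56 (mt-Nd4l). A list of 10 nuclear copies also holds copies of parts of mt-Co1 and mt-Nd4 and diverged copies such as Gm13341. Of 9 tested in this list, 7 were called lower and 0 higher. Gm28438 was at -1.52 ± 0.18 and Gm28439, the copy of part of mt-Nd4, at -1.54 ± 0.21.

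Of 9 tRNA genes tested after saline, 3 were higher in germ cells. mt-Ty, the tyrosine tRNA, was at 0.775, 1.28 and 1.09 CPM in germ cells and 0.126, 0.258 and 0.243 in somatic cells, a log2 difference of 2.30 ± 0.51 with an edgeR adjusted p of 0.000686. mt-Tl1, the leucine tRNA gene that follows mt-Rnr2, was higher by 1.81 ± 0.30 and mt-Tc, the cysteine tRNA, by 0.86 ± 0.32. mt-Th and mt-Tn, for histidine and asparagine, were lower by log2 differences of -0.81 ± 0.32 and -1.27 ± 0.51. Of 13 alternatives the call held in 9 for mt-Tc, 7 for mt-Th and 8 for mt-Tn, each being lost without some single libraries, and DESeq2 called neither mt-Th nor mt-Tn. All these genes had at most 138 counts per library, and poly-dT selection does not target them.

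**Figure D4:**
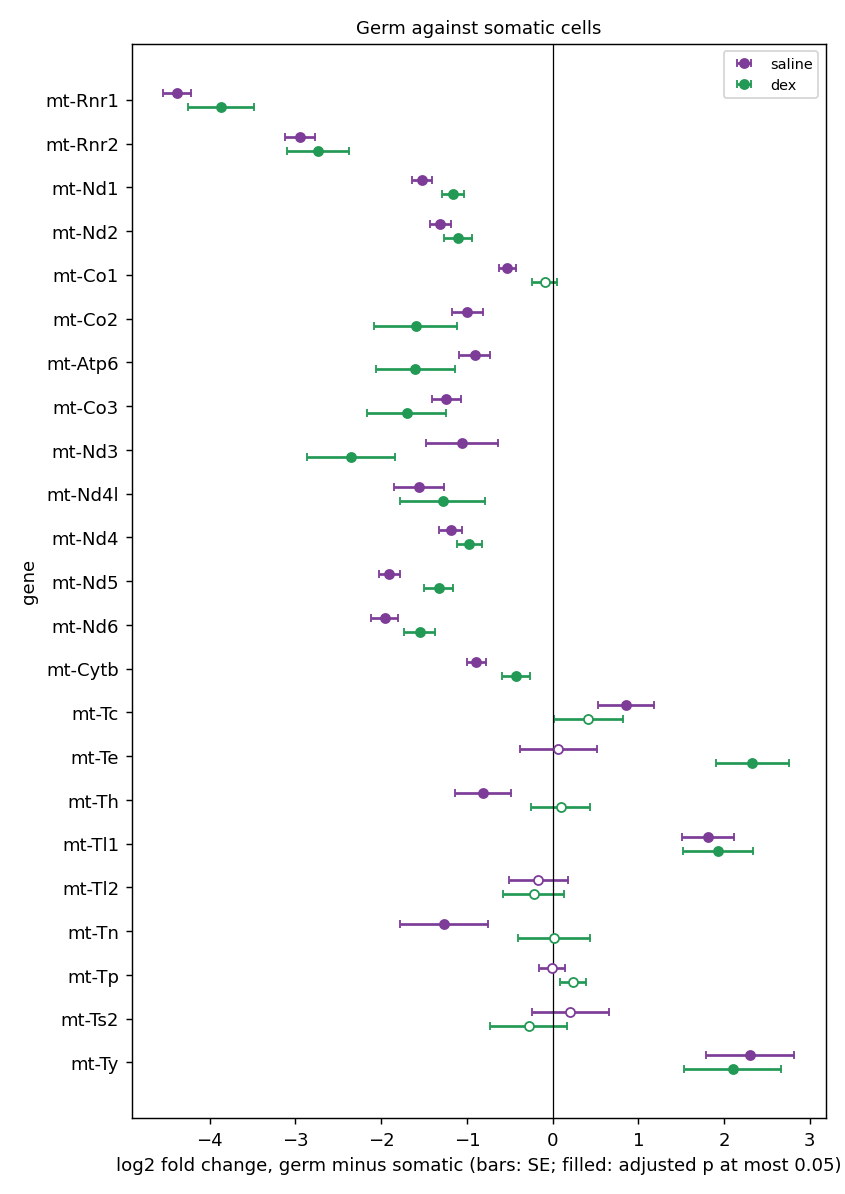
Log2 fold change, germ minus somatic, after saline (purple) and after dex (green) for each gene tested in either comparison, with bars of 1 SE; filled points have an adjusted p of at most 0.05. The mRNA and rRNA genes lie left of 0, with mt-Co1 after dex close to it (-0.09), and mt-Tl1 and mt-Ty lie to the right in both.

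After dex the picture between the fractions was similar, with 16 of 23 tested genes called by edgeR, 13 lower and 3 higher, beside 42.2% of 18171 genes lower and 42% higher (84.3% in either direction). mt-Rnr1 was at 465, 299 and 180 CPM in germ cells and 6169, 4915 and 2444 in somatic cells, a log2 difference of -3.87 ± 0.38. mt-Co1 was at 6803, 4732 and 4246 CPM in germ cells and 5451, 5798 and 5327 in somatic cells, and the groups overlapped (log2 difference -0.09 ± 0.15, adjusted p = 0.563 by edgeR). The other 11 tested mRNA genes were called lower, from -0.42 ± 0.16 for mt-Cytb to -2.35 ± 0.51 for mt-Nd3. mt-Co2, mt-Atp6 and mt-Co3 were at -1.60, -1.60 and -1.70, with the third somatic dex library the highest for each. Their calls held in 13 of 13 alternatives, but the differences shrank to as little as -0.64, -0.67 and -0.81. The mt-Cytb call held in 7 of 13 alternatives and was lost under both other scalings and without germ cell dex replicate 2 or 3 or somatic dex replicate 1 or 2 (-0.66 to -0.24 over the alternatives). That of mt-Nd4l held in 9 of 13, its value without the third somatic dex library being -0.55, and mt-Nd3 was at -1.08 with the counts of its nuclear copy added. mt-Te, the glutamate tRNA, was higher at 2.33 ± 0.43, as were mt-Tl1 (1.93 ± 0.41) and mt-Ty (2.10 ± 0.56).

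More of the nuclear genes that serve mitochondrial DNA and RNA were higher in germ cells than lower. These counts stand beside 43.1% of all genes called higher and 42.9% called lower after saline. Of 25 genes for transcription and maintenance of mitochondrial DNA, 18 were higher and 4 lower in germ cells after saline, with a median log2 difference of 0.91. Twnk, the replicative helicase, was higher by 2.26 ± 0.08, Polrmt, the mitochondrial RNA polymerase, by 1.83 ± 0.08, and Tfam, which packages mitochondrial DNA and starts its transcription, by 0.69 ± 0.07. Of 35 genes for mitochondrial RNA processing, modification and turnover, 22 were higher and 6 lower. Lrpprc, which stabilises mitochondrial mRNAs, was higher by 1.97 ± 0.08 and Nsun3, a methyltransferase for a mitochondrial tRNA, by 3.61 ± 0.10, while Hsd17b10, a subunit of the enzyme that cuts tRNA 5′ ends, was lower at -3.20 ± 0.11. Of 22 mitochondrial aminoacyl-tRNA synthetase genes and partners, 17 were higher and 5 lower, among them Gatb at 2.65 ± 0.10 and Mars2 at 2.58 ± 0.11.

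Nuclear regulators of mitochondrial biogenesis were called at about the share of all genes after saline, with 6 of 14 higher and 6 lower beside 43.1% and 42.9%. Myc, a general growth regulator, was lower in germ cells at -6.33 ± 0.19, and Sirt1, a deacetylase, was higher at 2.21 ± 0.09. Of a list of 12 dissociation and stress genes, which holds immediate-early genes and heat-shock chaperones, 12 were lower in germ cells, from -0.23 ± 0.07 for the chaperone Hspa8 to -5.91 ± 0.21 for Atf3, with Fos at -5.58 ± 0.15 and Jun at -4.61 ± 0.09. The sum over the list was 1189 to 1371 CPM in germ cells and 6101 to 7635 in somatic cells. RNAs that stay in the nucleus were lower in germ cells for 4 of 4, among them Malat1 at -1.12 ± 0.14. The part of either in the mitochondrial values was not tested. After dex the counts were 18 higher and 4 lower for transcription and maintenance, 20 and 6 for RNA processing, and 14 and 5 for the synthetases, beside 42% of all genes higher and 42.2% lower.

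In somatic cells dex went with lower levels of several mitochondrial mRNAs. Of 22 genes tested, edgeR called 5 lower (mt-Co1, mt-Cytb, mt-Nd1, mt-Nd2 and mt-Nd5) and 0 higher, beside 3.36% of 16556 genes called lower and 4.81% higher (8.18% in either direction). The median log2 difference of the 22 was -0.22 beside 0.000142 over all genes. The 7 abundant mRNA genes were at -0.34 to -0.49, which is 1.26 to 1.40 times lower, and the rRNAs were near 0.

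mt-Nd1 was at 3084, 3133 and 2260 CPM after saline and 2116, 2041 and 2003 after dex, so that the groups did not overlap. Its log2 difference, dex minus saline, was -0.47 ± 0.10 (adjusted p = 0.0114 by edgeR). mt-Cytb was at 3320, 3209 and 2373 CPM after saline and 2279, 2210 and 1956 after dex (-0.47 ± 0.11, adjusted p = 0.0150 by edgeR). mt-Nd5 moved from 2232, 2169 and 1583 CPM to 1473, 1531 and 1280 (-0.49 ± 0.11, adjusted p = 0.0166 by edgeR).

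mt-Co1 moved from 7371, 7542 and 5954 CPM to 5451, 5798 and 5327, again without overlap, a log2 difference of -0.34 ± 0.08 (adjusted p = 0.0234 by edgeR). For mt-Nd2 the groups overlapped, since the third saline library was at 1178 CPM and the second dex library at 1214, and the log2 difference was -0.45 ± 0.12 (adjusted p = 0.0400 by edgeR). mt-Nd4 and mt-Nd6 were at -0.43 ± 0.13 and -0.41 ± 0.15 and did not pass (adjusted p = 0.0612 and 0.129 by edgeR). In each of these 7 genes the third saline library was the lowest of its group.

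These calls rested on a few libraries. Without the first somatic saline library none of the 5 was called, and without the second none was, while without the third saline library all 5 were, with mt-Nd4 and mt-Nd6 as well. Without the first somatic dex library mt-Co1 and mt-Nd2 were lost, and without the second mt-Nd2 was. DESeq2 called 4 of the 5, all but mt-Nd2, beside 1477 of 16262 genes in all. When all 12 libraries shared 1 estimate of the spread, 0 were called at near-equal values (mt-Nd1 at -0.46, adjusted p = 0.0661 by edgeR). In the same comparison 4 of 8 macrophage markers and 3 of 6 endothelial markers were lower after dex, among them Adgre1 at -1.78 ± 0.32 and Cdh5 at -0.50 ± 0.10. Macrophage markers summed to 133 to 173 CPM after saline and 42.4 to 100.7 after dex, and red blood cell markers to 7405 to 12482 and 3329 to 16535. Germ cell markers summed to 4.97 to 8.07 CPM after saline and 17.3 to 24.9 after dex, with 2 of 8 at 0 in the dex libraries. Of the 5 tested, 1 was called higher, Dazl, a germ cell RNA-binding protein, by 3.43 ± 0.21, and 4 were not called. Of the 12 dissociation and stress genes 2 rose, Fos by 0.55 ± 0.11 and Egr1 by 0.23 ± 0.06, and of 4 nuclear-retained RNAs 1 rose, Kcnq1ot1 by 0.56 ± 0.13. Their part in the mitochondrial values was not tested.

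The rRNAs varied widely within the somatic groups. mt-Rnr2 was at 6092, 4345 and 3165 CPM after saline and 6327, 5377 and 2254 after dex, a log2 difference of 0.03 ± 0.29 (adjusted p = 0.966 by edgeR), and mt-Rnr1 was at -0.04 ± 0.25. mt-Co2, mt-Atp6 and mt-Co3 were at 0.59 ± 0.41, 0.60 ± 0.40 and 0.58 ± 0.39 and none passed. Without the third somatic dex library these turned to -0.37, -0.32 and -0.31. mt-Te was at 1.32, 2.06 and 0.667 CPM after saline and 0.302, 0.507 and 0.357 after dex, without overlap and with a log2 difference of -1.77 ± 0.55, and did not pass (adjusted p = 0.0689 by edgeR).

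Of the nuclear lists in somatic cells, 1 of 25 transcription and maintenance genes rose after dex, Twnk by 0.35 ± 0.09, and 1 of 16 biogenesis regulators, Ppard, a lipid-sensing nuclear receptor, by 0.63 ± 0.11. 0 of 35 RNA processing genes and 0 of 22 synthetases were called by edgeR, with 2 and 3 at an unadjusted p under 0.05. The share of all genes at that unadjusted p is not given here. Tfam, Polrmt and Lrpprc were at 0.04 ± 0.07, -0.05 ± 0.09 and 0.12 ± 0.07.

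**Figure D5:**
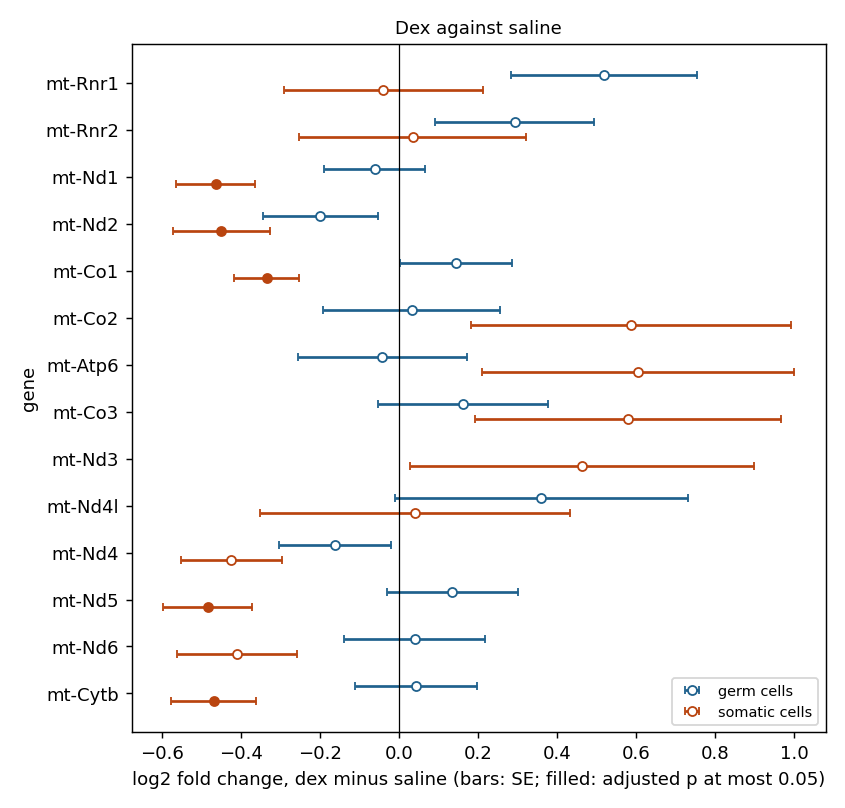
Log2 fold change, dex minus saline, in germ cells (blue) and somatic cells (orange) for the mRNA and rRNA genes tested, with bars of 1 SE; filled points have an adjusted p of at most 0.05. The 5 filled points are in somatic cells and left of 0, and the germ cell points lie between -0.20 and 0.52.

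In germ cells no mitochondrial gene was called. DESeq2 called 0, beside 158 of 18367 genes in all. Of 23 tested, edgeR called 0, beside 0.208% of 16857 genes called (0.119% lower and 0.089% higher), with 1 at an unadjusted p under 0.05. mt-Rnr1, the gene with that p, was at 224, 205 and 233 CPM after saline and 465, 299 and 180 after dex, so the dex libraries spanned the saline ones (0.52 ± 0.24, adjusted p = 0.426 by edgeR). mt-Co1 was at 4504, 5333 and 4528 CPM after saline and 6803, 4732 and 4246 after dex (0.14 ± 0.14), and mt-Nd2 was at -0.20 ± 0.15. mt-Th was at 1.29, 1.17 and 1.31 CPM after saline and 2.28, 1.75 and 1.69 after dex, and it did not pass (0.60 ± 0.32, adjusted p = 0.512 by edgeR). Its groups did not overlap, but it had only 20 to 34 counts per germ cell library. How many of all genes separate in this way was not counted. The first germ cell dex library had the highest mitochondrial mRNA share of the germ cell libraries, 1.29% against 0.777% to 1.04% in the others. No gene of the 4 nuclear lists named above was called in germ cells by edgeR, with 2, 6, 0 and 2 at an unadjusted p under 0.05 for transcription and maintenance, RNA processing, synthetases and regulators. How many of all genes reach that p is not given here, so these counts are not read as an excess. Tfam was at -0.02 ± 0.06, Polrmt at 0.04 ± 0.07 and Lrpprc at -0.16 ± 0.07.

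The difference between the dex responses was tested directly over all 12 libraries. Of 24 mitochondrial genes tested edgeR called 0, with 4 at an unadjusted p under 0.05, beside 1.62% of 19390 genes called (0.49% higher and 1.13% lower). DESeq2 called 1, mt-Te, beside 620 of 15850 genes in all. The share of all genes at an unadjusted p under 0.05 is not given here. The difference, germ minus somatic, was 0.47 ± 0.19 for mt-Co1, 0.50 ± 0.22 for mt-Cytb and 0.61 ± 0.24 for mt-Nd5, with adjusted p-values of 0.254, 0.291 and 0.226 by edgeR. For mt-Te it was 2.29 ± 0.65 (adjusted p = 0.100 by edgeR). The calls made in somatic cells alone were thus not shown to differ from the germ cell values.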

How the data were processed

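Poly-A RNA-seq was available for 12 libraries, 3 in each of 4 groups taken from the sample titles. The authors aligned reads to mm10 with HISAT2 2.0.5 and counted them per gene with featureCounts 1.5.0-p3, as the submitters' processing notes list. The deposited counts are not normalized, and the deposited FPKM values were computed by the authors from counts, gene length and depth. Columns of the authors' own comparisons (fold changes and p-values, made with DESeq2 1.20.0) were not used. Totals were 14658503 to 18245507 counts, and floors and spreads cover counting error and these pooled samples only.

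Counts were tested with edgeR 4.0.16 (TMM, filterByExpr, quasi-likelihood, two-sided, Benjamini-Hochberg over all genes tested, called at 0.05, no covariates) in R 4.3.3, with 2 groups per fit and all 4 for the difference of responses. SE is the log2 fold change over the root of F. The test was checked on simulated data. Alternatives were DESeq2 1.42.0, other scalings, no filter, a replicate block, 1 fit over 12 libraries, leaving out each library, and, chosen after seeing the data, adding the counts of nuclear copies. Copies were found with BLAST+ 2.17.0 on GENCODE M21 transcripts. All mRNA and rRNA genes are named, and from nuclear lists the called genes with the lowest adjusted p, plus Tfam, Polrmt and Lrpprc. The members and lists were chosen with earlier results of these data known.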

Additional observations from a re-analysis of the deposited data

How the results depend on the processing

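With no filter on low counts, 2 mitochondrial genes (mt-Rnr1 and mt-Rnr2, higher) were called for dex in germ cells, 12 in somatic cells (8 lower, 4 higher) and 7 for the difference of responses, against 0, 5 and 0. Calls over all genes rose too in these 3 fits. They were 420 of 33150, 1946 of 30416 and 727 of 36214 genes, against 35 of 16857, 1354 of 16556 and 314 of 19390. In 1 fit over 12 libraries 0 were called for dex in somatic cells, beside 803 of 19390 genes. DESeq2 called 1 for the difference, beside 620 of 15850 genes. Leaving out 1 library gave 0 to 1 calls for dex in germ cells (mt-Nd2, lower, without the first dex library), 0 to 7 in somatic cells, 16 to 18 between fractions after saline, 14 to 18 after dex, and 0 for the difference. Over all genes these fits called 17 to 81, 754 to 1881, 15530 to 15730, 15322 to 15535 and 143 to 383 genes in the same order. For dex in somatic cells, leaving out the first saline library left 1 call, mt-Tq, higher. The replicate block gave 0, 7, 17, 15 and 0 calls in the order germ dex, somatic dex, saline, dex and difference. It lost mt-Nd3 and mt-Th after saline and mt-Nd4l after dex. Between germ and somatic libraries of 1 treatment, deviations from the group means correlated at 0.067 to 0.099 (dex) and 0.054 to 0.085 (saline) for equal numbers and below 0 for all unequal ones. Every sample thus correlated best with its own number, a hint from the data and not from the design. Deviations from a group mean sum to 0, so the values below 0 follow in part from the positive ones and add no separate support. No source used here ties the numbers to a shared pool, and none of these pairs was over 0.1. The samples were taken to share only a number. Between dex and saline of 1 fraction, equal numbers correlated at -0.0097 to 0.132. With counts of nuclear copies added, the calls were 0, 5, 19, 16 and 0. The cause of these shifts was not tested.

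The share of counts from mitochondrial genes was 1.01%, 1.09%, 2.78% and 2.26% in germ saline, germ dex, somatic saline and somatic dex. With mRNA genes only it was 1.86% in somatic saline and 1.37% in somatic dex. With mt-Atp8, mt-Atp6, mt-Nd4l and mt-Nd4 also left out it was 0.864% in germ saline, 1.70% in somatic saline and 1.25% in somatic dex. Fewer genes were summed in both cases, and mRNA genes with other overlaps, such as mt-Nd5 and mt-Nd6, were kept.

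No log2 fold change that crossed 0 was called in the reported fit or where it had crossed. By setting these became for dex against saline in germ cells mt-Co2 -0.0012 (replicate block), mt-Atp6 0.0018 (nuclear copy counts added), for dex against saline in somatic cells mt-Rnr2 -0.0085 (plain library totals), mt-Tl1 -0.0054 (plain library totals), mt-Rnr2 -0.046 (replicate block), mt-Nd4l -0.11 (replicate block), mt-Tl1 -0.00086 (replicate block), mt-Nd4l -0.020 (nuclear copy counts added), mt-Nd3 -0.049 (nuclear copy counts added), for germ against somatic cells after saline mt-Tp 0.032 (RLE scaling), mt-Tp 0.028 (DESeq2), mt-Tp 0.010 (replicate block), and for the difference of responses mt-Tl2 0.039 (plain library totals), mt-Nd3 0.44 (nuclear copy counts added).

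Leaving out each library in turn for dex against saline in germ cells, the log2 fold change ran from -0.10 to 0.27 for mt-Co1, from -0.032 to 0.54 for mt-Rnr2, from -0.24 to 0.19 for mt-Cytb, from -0.26 to 0.046 for mt-Nd1, from -0.13 to 0.32 for mt-Nd5, from -0.24 to 0.23 for mt-Nd6, from -0.29 to 0.19 for mt-Co2, from -0.31 to 0.12 for mt-Atp6, from -0.15 to 0.29 for mt-Co3, from -0.12 to 0.13 for mt-Tp, from -0.66 to 0.055 for mt-Tc, from -0.046 to 0.64 for mt-Nd4l, from -0.18 to 0.42 for mt-Tl1, from -0.24 to 0.52 for mt-Ts2, from -0.35 to 0.038 for mt-Tl2, from -0.20 to 0.39 for mt-Ty. Leaving out each library in turn for dex against saline in somatic cells, the log2 fold change ran from -0.24 to 0.37 for mt-Rnr2, from -0.33 to 0.26 for mt-Rnr1, from -0.37 to 0.92 for mt-Co2, from -0.32 to 0.93 for mt-Atp6, from -0.31 to 0.91 for mt-Co3, from -0.29 to 0.71 for mt-Tc, from -0.68 to 0.37 for mt-Nd4l, from -0.19 to 0.26 for mt-Tl1, from -0.38 to 0.11 for mt-Tl2. Leaving out each library in turn for germ against somatic cells after saline, the log2 fold change ran from -0.18 to 0.064 for mt-Tp, from -0.11 to 0.64 for mt-Ts2, from -0.40 to 0.10 for mt-Tl2, from -0.27 to 0.48 for mt-Te. Leaving out each library in turn for germ against somatic cells after dex, the log2 fold change ran from -0.29 to 0.071 for mt-Co1, from -0.021 to 0.93 for mt-Tc, from -0.60 to 0.15 for mt-Ts2, from -0.020 to 0.30 for mt-Th, from -0.20 to 0.25 for mt-Tn. Leaving out each library in turn for the difference of responses, the log2 fold change ran from -0.070 to 0.55 for mt-Rnr2, from -0.90 to 0.40 for mt-Co2, from -0.98 to 0.28 for mt-Atp6, from -0.75 to 0.48 for mt-Co3, from -0.89 to 0.11 for mt-Tc, from -0.077 to 1.04 for mt-Nd4l, from -0.20 to 0.40 for mt-Tl1, from -0.32 to 0.21 for mt-Tl2, from -0.48 to 0.13 for mt-Ty.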
